A study of Mus musculus with 10 samples.

Results

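The genes of oxidative phosphorylation (OXPHOS), encoded partly by the mitochondrial and partly by the nuclear genome, were examined in bulk RNA-seq of the anterior fontanelle (AF), the soft membrane between the frontal bones of the skull. Members were the protein-coding rows of the deposited gene table that lay on the mitochondrial chromosome or whose symbol began with Ndufa, Ndufb, Ndufc, Ndufs, Ndufv, Uqcr, Cox4 to Cox8 or Atp5, or was Sdha, Sdhb, Sdhc or Sdhd. This gave 106 of 23080 rows, 13 of them mitochondrially encoded and 93 nuclear. The nuclear set held 77 subunit genes of the main forms, 9 assembly factors (8 Ndufaf genes and Cox7a2l), 6 isoforms known mainly from other tissues or states (Cox4i2, Cox6a2, Cox6b2, Cox7a1, Cox8b and Ndufa4l2) and the retrocopy Cox5b-ps.

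The study compared mice in which the FGF receptor gene Fgfr2 was deleted in the neural crest, genotype Wnt1-Cre; Fgfr2fl/fl, with animals given as WT in the labels and as littermate controls in the study's text, all at E18.5. The excised AF region held suture connective tissue and bone, without skin or brain, and 5 libraries were made per group. Wnt1-Cre acts in neural crest-derived cells, so cells of other origin in the tissue, such as those of blood and vessels, keep the floxed gene. The study's text gives the animals as littermate pairs, and nothing in the labels says which libraries form a pair.

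Fgfr2 counts were checked first. They were 200.2, 235, 176, 195 and 192 CPM (counts scaled to a common library total, with TMM factors) in the libraries labelled WT 1 to 5, and 299, 273, 325, 338 and 357 CPM in those labelled knockout 1 to 5. Counts over the whole gene were higher, not lower, under the knockout label (adjusted p = 0.0487, edgeR's quasi-likelihood test with Benjamini-Hochberg adjustment). The counts do not separate the exons of the gene, so they do not show whether the floxed part is missing. Libraries are therefore referred to as control-labelled or mutant-labelled, and every direction below is a direction between labels. Libraries held 20774645 to 28515403 counts, and 18.6% to 33.5% of them fell on the ribosomal RNA row CT010467.1. Summed skeletal muscle markers stood at 1012 CPM in control-labelled library 2 and 1059 CPM in mutant-labelled library 1, against 33.7 to 219 CPM in the other 8 libraries. The 8 neuron markers were highest in mutant-labelled library 2, with a sum of 472 CPM against 56.8 to 205 CPM elsewhere.

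OXPHOS couples the oxidation of NADH and succinate to ATP synthesis in the inner mitochondrial membrane: complexes I, III and IV pump protons, complex II feeds electrons from succinate into the chain, and complex V (ATP synthase) uses the proton gradient. The mitochondrial genome encodes core subunits of complexes I, III, IV and V, transcribed as long transcripts from each strand and cut into single mRNAs. All of complex II and most other subunits come from nuclear genes made in the cytosol and imported. Osteoblasts use both OXPHOS and glycolysis as they mature and lay down matrix.

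The mitochondrial members could be read only with the nuclear copy of mitochondrial DNA on mouse chromosome 1 in view, because 7 of the 13 genes had a copy there with a row of its own in the table. In the GENCODE M21 transcripts (GRCm38, the build called mm10 in the submitters' notes) the copies of mt-Atp6, mt-Co2, mt-Co3, mt-Nd4 and mt-Nd4l matched the compared bases of their gene at 100%, that of mt-Nd3 at 99.71% and that of mt-Co1 at 98.78%. The first 90 bases of the overlap are shown for 3 pairs that span this range, since reads of 50 bases from them cannot all be placed. Capitals mark the bases at which gene and copy differ, all are coding-strand sequence 5′ to 3′, and the copies lie on the minus strand.
mt-Co3, chrM:8607-8696: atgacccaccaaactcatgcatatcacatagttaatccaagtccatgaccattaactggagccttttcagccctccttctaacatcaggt
Gm28437, chr1:24613882-24613971: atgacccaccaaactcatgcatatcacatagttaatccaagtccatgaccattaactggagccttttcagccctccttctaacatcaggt
mt-Nd3, chrM:9459-9548: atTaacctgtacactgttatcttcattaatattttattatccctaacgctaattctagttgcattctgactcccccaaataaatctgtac
Gm28438, chr1:24613030-24613119: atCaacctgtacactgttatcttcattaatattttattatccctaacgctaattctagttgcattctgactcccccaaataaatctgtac
mt-Co1, chrM:6381-6470: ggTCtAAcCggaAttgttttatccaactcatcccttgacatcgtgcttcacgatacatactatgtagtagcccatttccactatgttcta
Gm29216, chr1:24616108-24616197: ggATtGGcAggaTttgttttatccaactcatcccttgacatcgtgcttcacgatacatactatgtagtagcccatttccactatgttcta
The mt-Co3 pair differed at 0 bases over its 783 compared bases, the mt-Nd3 pair at 1 of 345 and the mt-Co1 pair at 6 of 492, and all the differences lay in the printed stretches.

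The deposited counts of such pairs were split between both rows, except for mt-Nd4. The mt-Co3 copy held 50.001% to 50.011% of the pair's summed counts in the 10 libraries. The share on the copy was 49.9% to 54.8% for mt-Atp6, 50.4% to 55.4% for mt-Co2 and 55.9% to 60.5% for mt-Nd3. It was 27.9% to 35.8% for mt-Nd4l and 15.7% to 17.965% for mt-Co1, whose copy covers only the end of the gene. For mt-Nd4 it was 0.00166% to 1.75%, although its copy shared 62.2% of the 50-base windows of the gene. The copy of mt-Co1 shared 28.7%, and the reason for the difference was not tested. The mt-Co2 share did not separate the groups (54.2% ± 0.60 SD under the control label and 54.0% ± 2.06 under the mutant label, n = 5 each). Levels of these 7 genes are therefore uncertain, since the table does not show which of the shared reads came from the gene. How reads with several matches were assigned was not given in the sources used here.

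**Figure D1:**
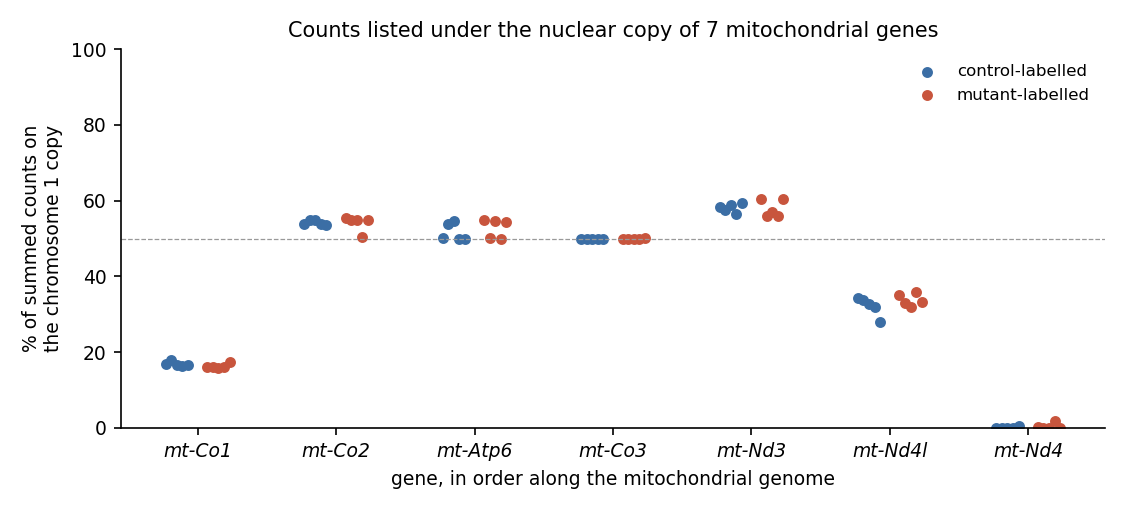
Share of the summed counts of a mitochondrial gene and its chromosome 1 copy that the table lists under the copy, in percent, for each of the 10 libraries (points, colored by label; the dashed line marks 50%). The mt-Co3 points all lie at the dashed line, and both groups overlap for each of the 7 genes.

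Levels per kilobase divided CPM by the length of all annotated exons of a gene joined, which can exceed that of a single transcript. Ranks among nuclear members hold for that length only. Per kilobase of exon, the mitochondrial members were the most abundant OXPHOS transcripts. Their mean levels ran from 190.0 (mt-Nd3) to 4584 (mt-Co1) CPM per kb, with a median of 2026, and those of the 91 nuclear members tested from 1.28 (Cox7a1) to 127 (Atp5o) CPM per kb, with a median of 18.2. As listed, the order of levels was mt-Co1 (catalytic subunit of cytochrome c oxidase), mt-Atp6 at 3161, mt-Cytb at 2746, mt-Co2 at 2301, mt-Nd4 at 2132, mt-Nd1 at 2036, mt-Co3 at 2026, mt-Atp8 at 1950.2, mt-Nd2 at 1118, mt-Nd5 at 997, mt-Nd4l at 694, mt-Nd6 at 301 and mt-Nd3 at 190.0 CPM per kb. With the copies' counts added, mt-Atp6 came first at 6580.1 CPM per kb, before mt-Co1 at 5491, mt-Co2 at 5003 and mt-Co3 at 4053, all above mt-Cytb. The coefficient of variation over the 10 libraries was 12.98% to 32.7% for the 13 genes, a spread that is largely shared between them. Within single libraries, mt-Co1, mt-Atp6, mt-Cytb and mt-Co2 kept this order in all 10, as did the genes from mt-Atp8 to mt-Nd3. Neighbours did not keep it in every library from mt-Co2 to mt-Atp8: mt-Co2 was above mt-Nd4 in 8 libraries, mt-Nd4 above mt-Nd1 in 8, mt-Nd1 above mt-Co3 in 3 and mt-Co3 above mt-Atp8 in 7. The low place of mt-Nd6, the only member on the other strand of the mitochondrial genome (M:13552-14070, minus strand), held with and without the copies except against mt-Nd3, which had 453 CPM per kb once its copy was added.

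The summed mitochondrial members differed widely between libraries of one label. They came to 26679, 19008, 22360.5, 27191 and 33519.5 CPM in control-labelled libraries 1 to 5, and to 22395, 27013, 20868.5, 22213 and 21065 CPM in mutant-labelled libraries 1 to 5. The highest and the lowest library of all were both control-labelled, and the mutant-labelled range lay inside the control-labelled one. The means were 25752 ± 5483 and 22711 ± 2498 CPM (SD, n = 5 each). As a share of all counts the sum was 1.89% to 3.64%, and as a share of counts outside the ribosomal RNA row 2.70% to 4.59%. Control-labelled library 3 and mutant-labelled libraries 1, 3 and 5 had 32.1% to 33.5% of counts on that row. Their summed mitochondrial members were 20868.5 to 22395 CPM, in the lower part of the range. Mutant-labelled library 4 (22213 CPM), with 18.6% on it, also lay there, as did control-labelled library 2 (19008 CPM, the lowest), with 28.1%. Control-labelled library 5, the highest at 33519.5 CPM, had 20.8%. Control-labelled libraries 1 and 4 (26679 and 27191 CPM) had 25.99% and 25.94%, and mutant-labelled library 2 (27013 CPM) had 28.5%. With scaling factors computed without ribosomal RNA genes, the median log2 fold change of the mitochondrial members was −0.165, the same to this precision as with them. That median compares the labels and not single libraries. The part of ribosomal RNA in the spread between libraries was not tested.

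The nuclear members were steadier. Their sum was 3734, 3919.5, 4029, 4217 and 4008 CPM in control-labelled libraries 1 to 5, and 3639, 3699, 3733, 4078 and 3942 CPM in mutant-labelled libraries 1 to 5. The groups overlapped, with means of 3981 ± 176 and 3818 ± 184.8 CPM (SD, n = 5 each), and the highest of the 10 libraries was only 1.16 times the lowest, against 1.76 times for the mitochondrial sum. The genes Atp5b and Atp5a1, which encode the β and α subunits of the catalytic head of ATP synthase, made up 8.79% and 8.69% of the nuclear counts.

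The ratio of mitochondrial to nuclear counts was 7.15, 4.85, 5.55, 6.45 and 8.36 under the control label and 6.15, 7.30, 5.59, 5.45 and 5.34 under the mutant label. The group means, 6.47 ± 1.37 and 5.97 ± 0.81 (SD, n = 5 each), differed by less than either SD. On the mean log2 CPM scale the difference between the mitochondrial and nuclear members was 5.30 ± 0.36 under the control label and 5.19 ± 0.21 under the mutant label, a difference between labels of −0.11. Without control-labelled library 5 it became 0.014, so its sign rested on that library, and without control-labelled library 2 it became −0.21. With the chromosome 1 copies added it was −0.10. In bulk tissue, fewer cells of a type and less RNA per cell cannot be told apart, and this holds for every level given here.

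**Figure D2:**
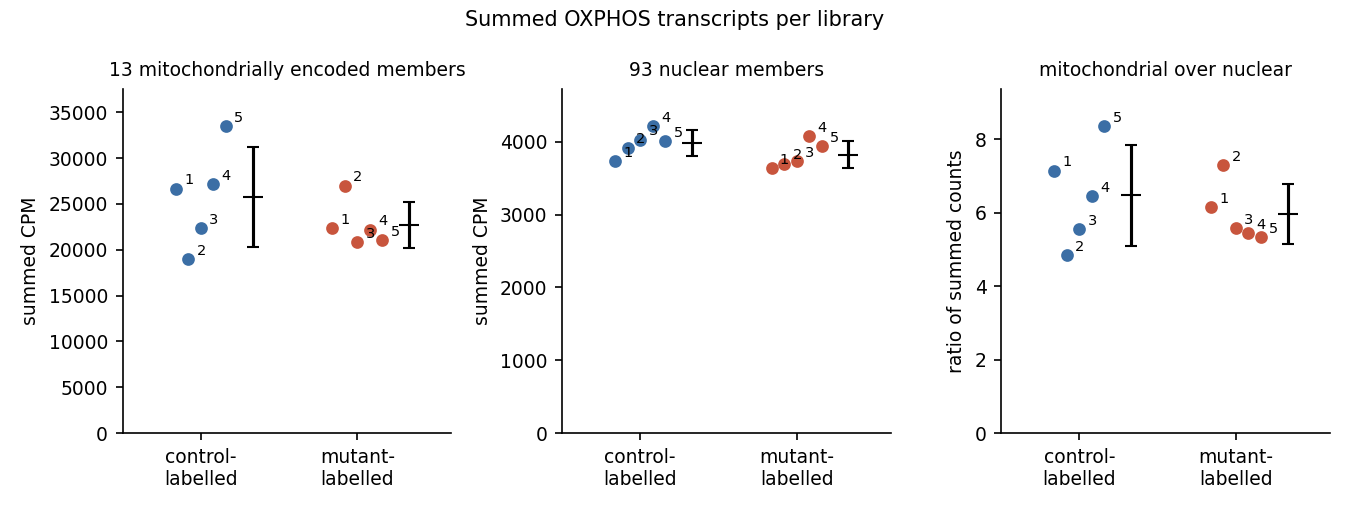
Summed CPM of the 13 mitochondrially encoded members and of the 93 nuclear members, and the ratio of their summed counts, in each library (points numbered by replicate, colored by label; bars show mean ± SD of 5 libraries). The groups overlap in all 3 panels, and control-labelled library 5 is the highest in the mitochondrial sum and in the ratio.

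The mitochondrial genes varied together from library to library. All 13 stood above their own 10-library mean in control-labelled libraries 1, 4 and 5 and in mutant-labelled library 2, and 0 of 13 did so in control-labelled library 2 and mutant-labelled libraries 3 and 5. Control-labelled library 5 was the highest library for 11 of the 13 genes, with a median deviation of 0.58 on the log2 scale, and control-labelled library 2 the lowest for 9, with −0.40. Nuclear medians stayed between −0.10 and 0.12. As a description over 10 libraries, Pearson's r of log2 CPM had a median of 0.85 over the 78 pairs of mitochondrial genes (0.46 to 0.99), 0.32 over the 4095 nuclear pairs and 0.069 over the 1183 mixed pairs. All of these pairs share libraries and scaling. The 12 pairs with mt-Nd6 had a median r of 0.64, against 0.88 for the 66 pairs among the other genes, which lie on the opposite strand.

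**Figure D3:**
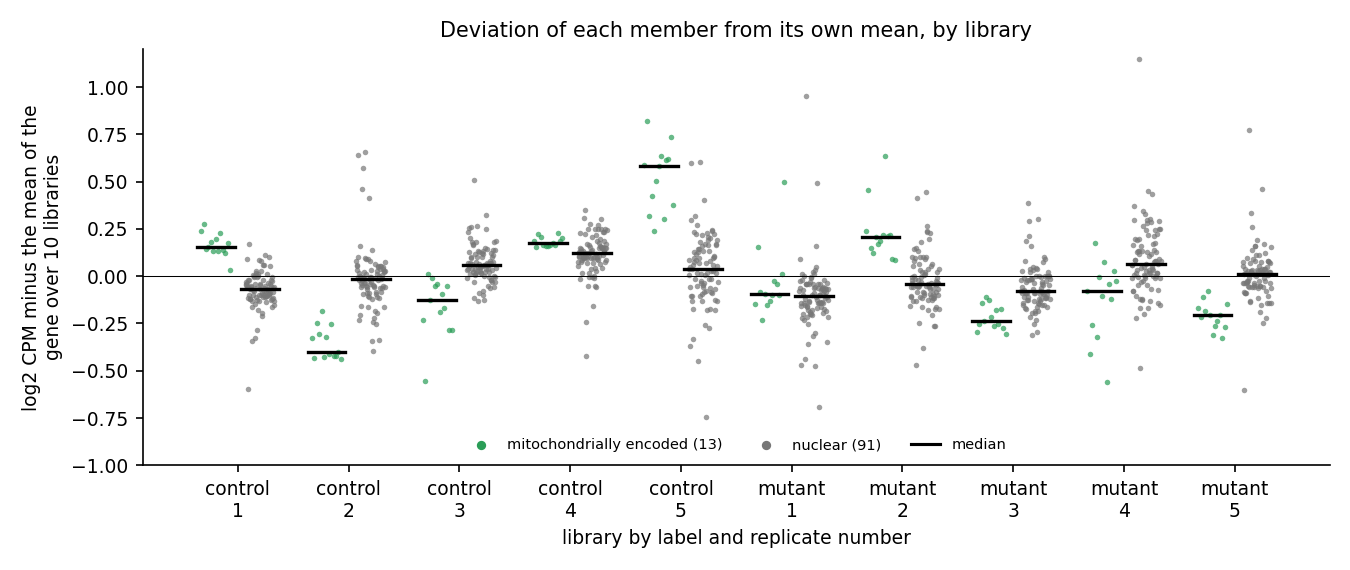
log2 CPM of each member minus its mean over the 10 libraries, for the 13 mitochondrially encoded members (green) and the 91 nuclear members tested (grey), with the median of each class (black line), by library; 1 point (Cox5b-ps in control-labelled library 5) lies below the axis. The green medians range from −0.40 to 0.58 and the grey ones from −0.10 to 0.12.

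The genes outside the member list whose log2 CPM was most like the summed mitochondrial members over the 10 libraries were Gm28661 (r = 0.99) and Gm10925 (r = 0.94), the chromosome 1 copies of mt-Co2 and mt-Atp6, then Sf1, Tmc3 and Srrm1 (r = 0.92 each). The copies share reads with their genes, so their likeness was built in. Sf1, Tmc3 and Srrm1 were picked as the highest of all other genes tested, and selection alone can give such values over 10 libraries. The mitochondrial ribosomal RNAs, which are made from the same strand as most of the mRNAs, were listed at 323 to 580 CPM (mt-Rnr1) and 477 to 947 CPM (mt-Rnr2), both highest in control-labelled library 5. The 5 mitochondrial tRNA rows in the table summed to 0.279 to 0.724 CPM.

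No OXPHOS member differed between the labels at an adjusted p under 0.05 in edgeR's quasi-likelihood test, and the count was also 0 with DESeq2's Wald test and with limma voom. Of the 106 members, 104 passed edgeR's expression filter, which left out the muscle isoforms Cox6a2 and Cox8b. Of all 16267 genes tested, 3 passed at that threshold (0.0184%). At an unadjusted p under 0.05, 4 of the 104 members were lower in mutant-labelled libraries and 0 were higher, against 3.82% and 3.68% of all genes tested, so in the fit of all 10 libraries the count of lower members was near the background. Leaving out each library in turn gave 2 to 10 lower members, while 2.63% to 4.13% of all genes tested were lower in those fits. The count was 10 of 104 (9.62%) without mutant-labelled library 4, where the share of all genes was 3.37%. It was 2 of 104 (1.92%) without mutant-labelled library 3, where that share was 3.16%. The CPM of the groups did not overlap for 1 member, against 1.48% of all genes tested.

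Fold changes below 0 were frequent but small. They were found in 88 of 104 members, with a median log2 fold change of −0.057, against 8085 of 16267 and a median of 0.00073 over all genes tested. The median was −0.16 for the 13 mitochondrial members, of which 12 lay below 0, and −0.053 for the 91 nuclear ones, of which 76 did. The mitochondrial median ran from −0.26 without control-labelled library 2 to −0.034 without control-labelled library 5, and the nuclear median from −0.072 without control-labelled library 1 to −0.020 without mutant-labelled library 1. Between 73 and 90 members lay below 0 when each library in turn was left out. The 95% confidence interval excluded a change of 1.5-fold in either direction for 94 of the 104 members, so changes of that size lay outside the intervals of most members. The other 10 included 4 mitochondrial genes.

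The osteoblast markers had fold changes in the same direction. All 12 had fold changes below 0 and 7 of them an unadjusted p under 0.05, with a median log2 fold change of −0.29, and their summed level was 66335 to 77969 CPM under the control label and 54313 to 78689 CPM under the mutant label. Most of that sum was Col1a1 (66247 and 64070 CPM on average), which had the fold change nearest to 0 of the 12 (−0.048). Examples were Dmp1 (−0.58), Alpl (−0.38) and Ibsp (−0.58), which encode a matrix protein of osteocytes, the alkaline phosphatase of mineralizing cells and bone sialoprotein. None of these passed adjustment in the edgeR fit (adjusted p = 0.321, 0.336 and 0.348), and their part in the OXPHOS values was not tested. Of the markers of other cells, 1 of 8 for osteoclasts (Calcr, −0.54) and 1 of 3 for brown adipocytes (Dio2, −0.66) were lower at an unadjusted p under 0.05, with list medians of −0.16 and −0.038. Among 8 macrophage markers Lyz2 was higher at that threshold (0.63) while 6 lay below 0 (median −0.14), and among 6 chondrocyte markers Col2a1 was higher (0.88) while 2 lay below 0 (median 0.17). All 8 neuron markers lay above 0, with the neurofilament genes Nefl (1.92) and Nefm (2.04) past the threshold. Their spread under the mutant label was larger than their mean, at 15.5 ± 22.1 and 13.8 ± 17.9 CPM (SD, n = 5; exact permutation p = 0.063 and 0.079). The adjusted p of these 6 genes was 0.302 to 0.631 (edgeR), and their part was not tested either.

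**Figure D4:**
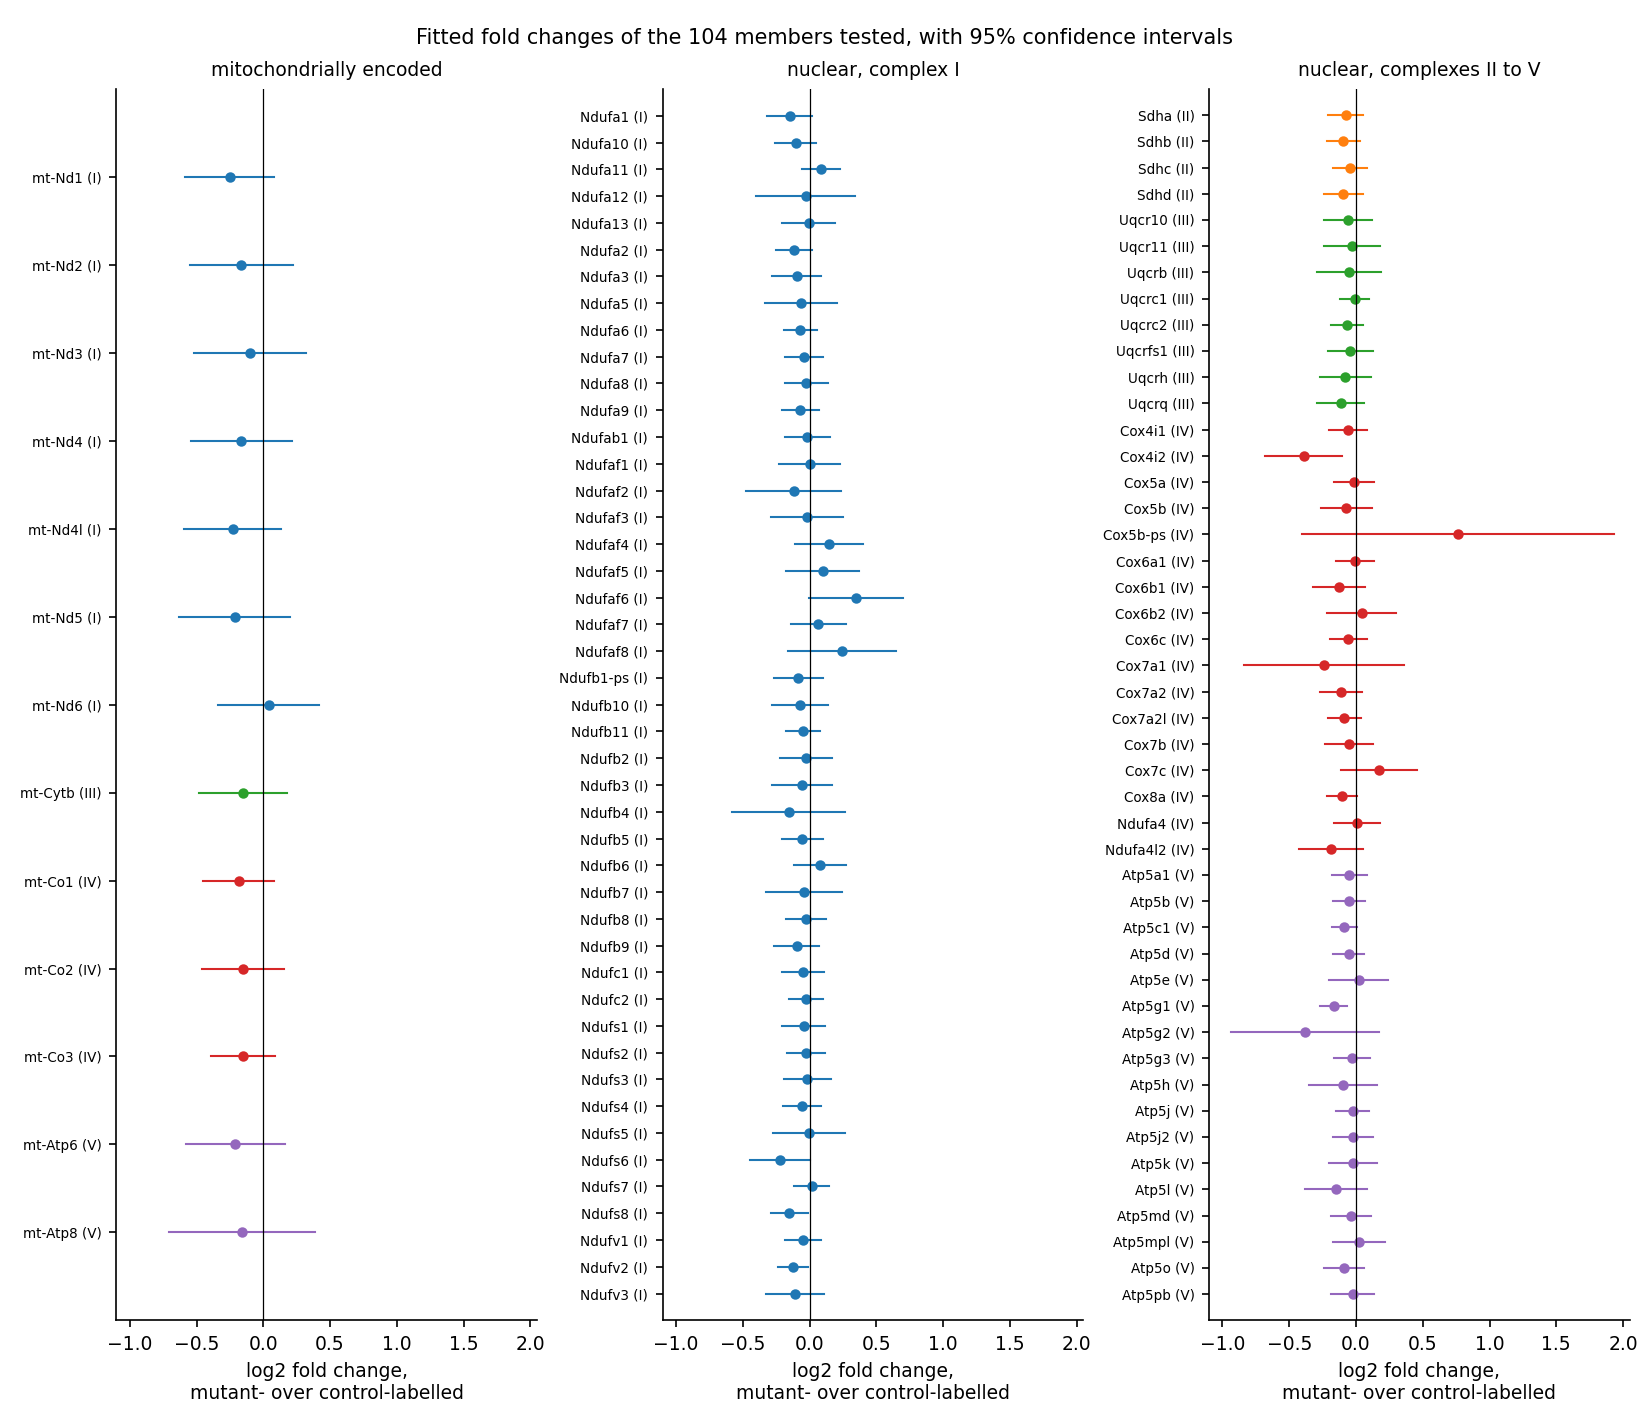
Fitted log2 fold change of each of the 104 members tested, mutant-labelled over control-labelled, with its 95% confidence interval, by genome and complex (in parentheses and by color). 88 points lie left of 0, the intervals of 4 nuclear members exclude 0, and Cox5b-ps has the widest interval.

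Among the complex I genes of the mitochondrial genome, mt-Nd1 had the fold change farthest from 0. Its CPM was 2194, 1533, 1863, 2135 and 2867 under the control label and 1748, 2178, 1647, 1779.8 and 1541 under the mutant label. The groups overlapped, and the log2 fold change was −0.25 ± 0.15 (SE; adjusted p = 0.730, edgeR). It ranged from −0.34 without control-labelled library 2 to −0.11 without control-labelled library 5. The other members of that complex on the heavy-strand transcript, mt-Nd2, mt-Nd3, mt-Nd4, mt-Nd4l and mt-Nd5, had values of −0.16, −0.10, −0.17, −0.23 and −0.21, with unadjusted p from 0.193 to 0.610. Without control-labelled library 5, mt-Nd2 and mt-Nd4 turned above 0 (0.010 and 0.0032) and mt-Nd4l and mt-Nd5 came to −0.070 and −0.010, and mt-Nd3 turned above 0 (0.018) without mutant-labelled library 4. mt-Nd6 lay at 157, 113, 126, 176 and 199 CPM under the control label and 217, 163, 124, 150.3 and 139 CPM under the mutant label. Its log2 fold change was 0.04 ± 0.17 (adjusted p = 0.973, edgeR), the only one of the 13 above 0, and it turned below 0 with library size alone as scaling (−0.0053), without the pair of muscle-rich libraries (−0.18), and without control-labelled library 2 or 3 or mutant-labelled library 1.

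mt-Cytb, the only mitochondrial subunit of complex III, had 3308 ± 762 CPM under the control label and 2974 ± 317 CPM under the mutant label (SD, n = 5 each), and the fitted log2 change was −0.15 ± 0.15, or −0.023 without control-labelled library 5. The catalytic subunit gene mt-Co1 had 7743, 5907.5, 7066, 8199 and 8761 CPM under the control label and 6617, 7789.5, 6369, 5869.5 and 6503 CPM under the mutant label. Its groups overlapped (log2 fold change −0.18 ± 0.12, adjusted p = 0.749, edgeR). mt-Co2 and mt-Co3, the other core subunits of cytochrome c oxidase, had −0.15 ± 0.14 and −0.15 ± 0.11. Without control-labelled library 5 mt-Co2 came to −0.049 and mt-Co1 to −0.12, and mt-Co3 came to −0.087 without mutant-labelled library 4. In complex V, mt-Atp6 had −0.21 ± 0.17 (−0.059 without control-labelled library 5), and mt-Atp8, whose reading frame overlaps it, −0.16 ± 0.25 with the largest variation of the 13, from 259 to 673 CPM, and a value of 0.084 without control-labelled library 5. When gene and copy were summed, the mean log2 ratio of the 7 genes with a copy was −0.13 (mt-Nd4) to −0.19 (mt-Co1), with exact permutation p from 0.135 to 0.548 (two-sided, over all groupings of 5 against 5 libraries, smallest possible p 0.00794). Of the 7 copies taken alone 6 lay below 0. Gm28439, the copy of mt-Nd4, lay at 1.00 ± 1.37 (5.64 ± 10.5 and 11.2 ± 21.6 CPM, SD, n = 5 each), and Gm29216, the copy of mt-Co1, was lower at an unadjusted p under 0.05 (1518 and 1285 CPM, log2 fold change −0.24, adjusted p = 0.648, edgeR).

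Of the nuclear complex I members, 36 of 45 lay below 0, with a median log2 fold change of −0.043. Of these 45, 2 had an unadjusted p under 0.05, both lower, near the 3.82% of all genes tested that were lower at that threshold. Over all genes tested, 49.7% lay below 0. Ndufv2, which encodes an iron-sulfur subunit of the NADH-oxidizing arm, had 38.6, 36.8, 39.97, 40.3 and 38.8 CPM under the control label and 33.02, 36.2, 34.4, 37.3 and 37.5 CPM under the mutant label. Control-labelled library 2 lay inside the mutant-labelled range, and the fold change was −0.12 ± 0.05 (p = 0.0319, adjusted p = 0.635, edgeR; exact permutation p = 0.024). Ndufs8, which encodes an iron-sulfur subunit of the arm that leads to the membrane, had 26.6, 28.3, 29.8, 30.3 and 29.2 CPM against 24.8, 25.2, 25.2, 29.9 and 24.7 CPM. Mutant-labelled library 4 lay with the control-labelled ones, and the fold change was −0.15 ± 0.06 (p = 0.0374, adjusted p = 0.649, edgeR; exact permutation p = 0.056). Ndufv2 lies at chr17:66078638-66101559 and Ndufs8 at chr19:3908863-3912774, both on the minus strand, and neither shared a 50-base window of its transcripts with another gene.

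By joined exon length, Ndufb11 and Ndufa2 were the nuclear complex I members highest per kilobase, at 53.8 and 43.6 CPM per kb. Both encode accessory subunits, with log2 fold changes of −0.048 and −0.12. Ndufb11 ran from −0.073 without mutant-labelled library 5 to −0.0059 without mutant-labelled library 2, and Ndufa2 came to −0.074 without mutant-labelled library 1. Of the 8 complex I assembly factors, Ndufaf2 and Ndufaf3 lay below 0, at −0.12 and −0.020, Ndufaf1 at 0.00011, and the other 5 above 0. The highest was Ndufaf6, at 1.86 ± 0.23 CPM under the control label and 2.36 ± 0.35 CPM under the mutant label (SD, n = 5 each), and the fitted log2 change was 0.35 ± 0.16 (adjusted p = 0.659, edgeR). With the counts behind it at 41 to 67 per library, counting error adds to this spread. Ndufaf6 was singled out after its values were seen.

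All 4 complex II genes lay below 0, from −0.045 (Sdhc) to −0.094 (Sdhb and Sdhd), and none passed an unadjusted p under 0.05. Sdhd, a membrane anchor, and Sdha, the flavoprotein that oxidizes succinate, were the highest of them per kilobase, at 37.7 and 27.8 CPM per kb. The Sdha values were 118 ± 6.95 and 111 ± 7.40 CPM (SD, n = 5 each). Its fold change of −0.077 came to −0.042 without mutant-labelled library 2, and that of Sdhd to −0.058 without control-labelled library 4. All 8 nuclear complex III members also lay below 0, from −0.011 (Uqcrc1, a core subunit) to −0.12 (Uqcrq), with none past an unadjusted p under 0.05. Uqcrh, the hinge subunit near cytochrome c1, and Uqcr10 led these nuclear members per kilobase with 69.3 and 50.4 CPM per kb. Their fold changes of −0.079 and −0.059 also moved with single libraries, Uqcrh from −0.15 without mutant-labelled library 4 to −0.028 without mutant-labelled library 1, and Uqcr10 from −0.10 without control-labelled library 5 to −0.0060 without control-labelled library 4.

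Complex IV holds most of the tissue isoforms, and these separated by level. Cox4i1, the general form of subunit 4, had 139 ± 7.13 and 134 ± 10.8 CPM (SD, n = 5 each) and a log2 fold change of −0.060, from −0.093 without mutant-labelled library 4 to −0.021 without mutant-labelled library 1. Its alternative Cox4i2, known from lung and pericytes and for its response to low oxygen, had 7.23, 10.4, 8.46, 9.28 and 8.03 CPM under the control label and 5.53, 5.41, 7.40, 7.49 and 7.24 CPM under the mutant label. Control-labelled library 1 fell inside the mutant-labelled range and the other 4 above it. The log2 fold change of −0.39 ± 0.13 was the lowest of all members (p = 0.0123, adjusted p = 0.531, edgeR; exact permutation p = 0.032). Without the muscle-rich libraries, control-labelled 2 and mutant-labelled 1, a choice made after seeing the data, it was −0.25 and no longer had an unadjusted p under 0.05 (adjusted p = 0.653, edgeR). Cox4i2 lies at chr2:152754173-152765037 on the plus strand.

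None of the 8 pericyte markers had an unadjusted p under 0.05. Their summed level was 664 to 729 CPM under the control label and 639 to 738 CPM under the mutant label, with a median log2 fold change of −0.020. Ndufa4l2, the low-oxygen form of Ndufa4, was far above Cox4i2 in level, at 112 CPM per kb, and had 131 ± 18.6 and 115 ± 15.4 CPM (SD, n = 5 each; log2 fold change −0.18 ± 0.11, adjusted p = 0.721, edgeR). Control-labelled library 2 was its highest at 162 CPM, and without that library the value was −0.086. Ndufa4 itself lay at 29.7 CPM per kb with a fold change of 0.0083, which turned below 0 with library size alone and without control-labelled library 1 or mutant-labelled library 2 or 5. Ndufa4l2 overlaps Shmt2 on the other strand, and the strand setting of the counting was not given in the sources used here.

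Of the muscle isoforms, Cox6a2 was highest in the libraries highest in muscle markers. Cox6a2, the heart and skeletal muscle form of subunit 6a, had 5, 43, 20, 6 and 2 counts under the control label and 37, 9, 1, 3 and 8 counts under the mutant label. The highest counts fell in control-labelled library 2 and mutant-labelled library 1, the libraries with the highest muscle marker sums. Cox8b had 3, 29, 13, 7 and 3 counts against 8, 5, 2, 2 and 6 counts, highest in control-labelled library 2 but higher in control-labelled library 3 than in mutant-labelled library 1. Over the 10 libraries, r of log2 CPM with the summed muscle markers was 0.94 for Cox6a2 and 0.89 for Cox8b, against 0.19 for Cox7a1, a further muscle form, and −0.29 for the general form Cox6a1. These points share libraries and scaling, and counts this low carry large counting error.

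The general forms were much higher. Cox6a1 had 94.7 CPM per kb against 0.80 for Cox6a2, Cox8a had 104.1 against 0.85 for Cox8b, Cox7a2 had 35.0 against 1.28 for Cox7a1, and Cox6b1 had 81.4 against 4.35 for Cox6b2, which is known from testis. Cox7a2l, a factor for the joining of complexes III and IV, had 70.8 CPM per kb. Their log2 fold changes were −0.0060 (Cox6a1), −0.10 (Cox8a), −0.11 (Cox7a2), −0.13 (Cox6b1) and −0.087 (Cox7a2l), and the values of the rarer forms were 0.042 (Cox6b2) and −0.24 ± 0.27 (Cox7a1, 0.0038 without the muscle-rich libraries and −0.061 without control-labelled library 2 alone). That of Cox6a1 turned above 0 under DESeq2 scaling and without control-labelled library 4 or 5 or mutant-labelled library 1, 2 or 3, and that of Cox6b2 below 0 without control-labelled library 4 or mutant-labelled library 3. Without mutant-labelled library 1, Cox7a2 came to −0.059 and Cox7a2l to −0.045, and without control-labelled library 5 Cox6b1 came to −0.081. Cox5b-ps, a retrocopy on chromosome 13, had the highest fold change of all members, 0.76 ± 0.54 (adjusted p = 0.774, edgeR; 0.46 without control-labelled library 5), with 1 to 89 counts per library and 61.9% of its 50-base windows shared with Cox5b, so its values are uncertain.

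**Figure D5:**
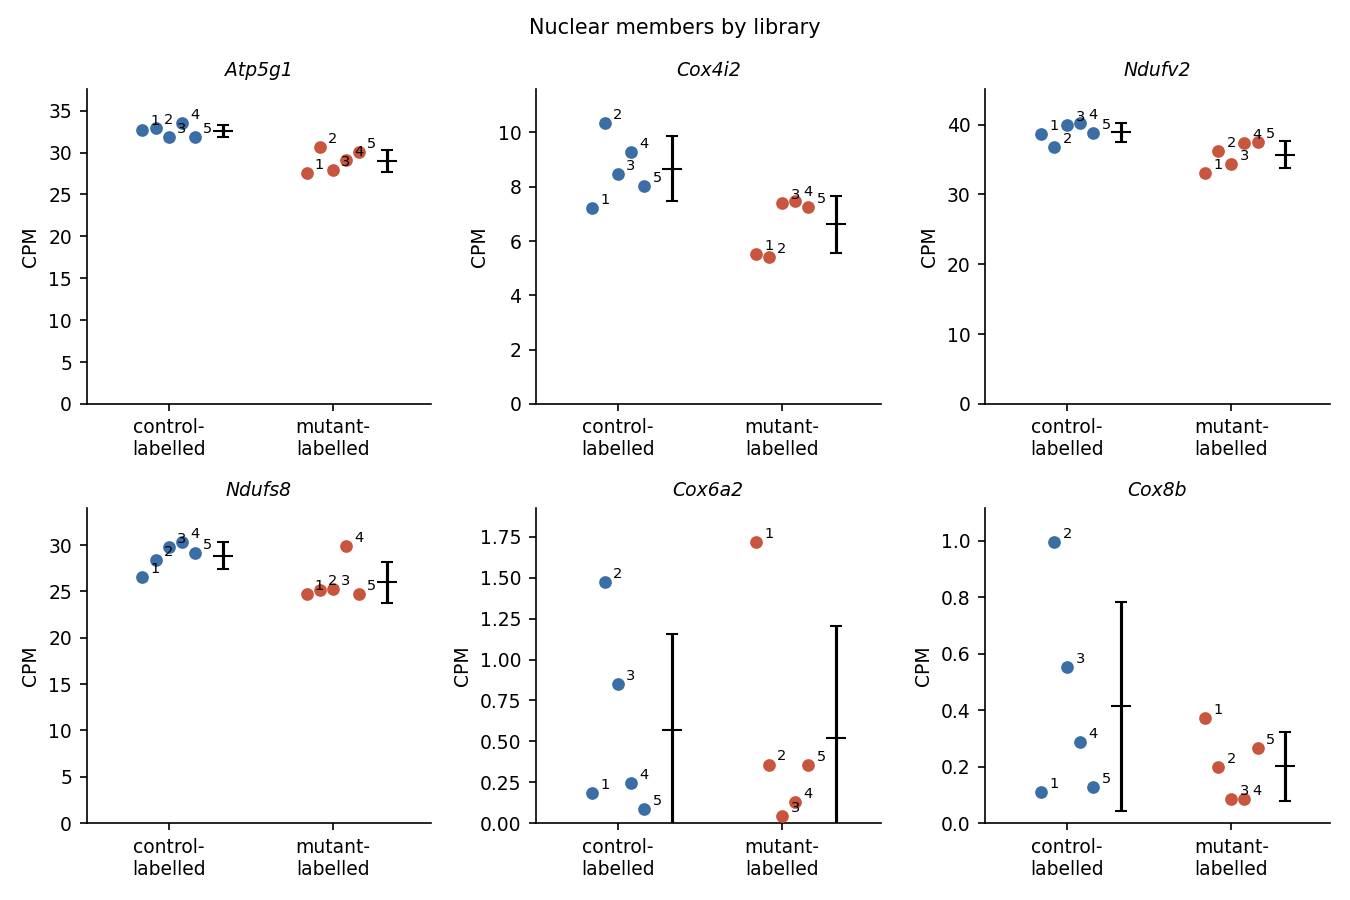
CPM by library (points numbered by replicate, colored by label; bars show mean ± SD of 5 libraries, ending at 0 where they would pass it) of the 4 nuclear members with an unadjusted p under 0.05 and of the muscle isoforms Cox6a2 and Cox8b. The groups do not overlap for Atp5g1, and the highest Cox6a2 libraries are control-labelled 2 and mutant-labelled 1.

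In complex V, 15 of 17 nuclear members lay below 0, with a median log2 fold change of −0.049. Atp5g1, Atp5g2 and Atp5g3 encode the same mature subunit c, the rotor ring of ATP synthase, behind different import sequences. Atp5g1 had 32.7, 32.9, 31.9, 33.6 and 31.8 CPM under the control label and 27.6, 30.6, 27.9, 29.1 and 30.03 CPM under the mutant label. All 5 mutant-labelled values lay below all 5 control-labelled ones, where 1.48% of all genes tested had groups without overlap, in either direction. The log2 fold change was −0.17 ± 0.05 (p = 0.0038, adjusted p = 0.411, edgeR; exact permutation p = 0.0079, the smallest the design allows). Its value kept an unadjusted p of 0.0027 to 0.019 when each library in turn was left out. Those fits share most of their libraries and are no separate support, and the adjusted p was above 0.05 in every fit. It lies at chr11:96068852-96075670 on the minus strand, and 11.1% of its windows were shared with other genes, most of them with the pseudogene Gm10039, which held 22.6% of the summed counts of both, so that part of its counts is uncertain.

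Atp5g3, the most abundant of the 3 at 39.5 CPM per kb, had 87.2 ± 7.58 and 85.3 ± 2.57 CPM (SD, n = 5 each) and a log2 fold change of −0.033, which turned slightly above 0 without control-labelled library 3 or 4. Atp5g2 had 3.67 ± 1.17 and 2.81 ± 0.78 CPM and −0.38 ± 0.25 (adjusted p = 0.752, edgeR; −0.25 without control-labelled library 2), and 38.3% of its windows were shared with pseudogenes that held more counts than it did, so its level is uncertain. Atp5b had 343 CPM, but its joined exon length was 4237 bases against 1867 windows of 50 bases in its protein-coding transcripts. Its rank is therefore uncertain. By joined exon length, Atp5o and Atp5a1 were the nuclear complex V members highest per kilobase, at 127 and 108 CPM per kb. Their fold changes were −0.089 ± 0.07 and −0.049 ± 0.06. With single libraries left out these ran from −0.12 to −0.032 (the latter without control-labelled library 5) and from −0.074 to −0.012 (the latter without mutant-labelled library 2). Of the Atp5o windows, 49.5% were shared with Donson and 13.5% with the pseudogene Gm5436, and others with a further annotated copy of Atp5o that has no counts of its own in the table.

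As nuclear members are known to be regulated by NRF1, ETS-family and YY1 factors, the RefSeq promoters (GRCm38.p6, 250 bases before to 50 after a start) were searched on both strands. All 93 nuclear members matched a RefSeq gene and 76 had a promoter in the table. The NRF1 palindrome shown in capitals in the Atp5g2 window was found in 7 of 76 (9.21%), against 1.93% of 13004 genes. The ETS letters CCGGAAG were found in 19 (25%), against 16.5%, and the YY1 letters AAGATGGC in 11 (14.5%), against 4.31%. A match is a description of letters and not of binding. The 120 bases upstream of a start are shown for the subunit c genes, which differ in level, and for Atp5j, of whose RefSeq promoters one held both ETS and YY1 letters and the other none; the window printed lies within the first bases of the ETS-factor gene Gabpa on the opposite strand. Capitals mark the matches, the sequence runs 5′ to 3′ on the gene's strand, and all 4 genes lie on the minus strand.
Atp5g1, chr11:96075632-96075751: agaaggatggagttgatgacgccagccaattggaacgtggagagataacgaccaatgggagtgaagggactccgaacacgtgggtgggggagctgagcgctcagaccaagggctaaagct
Atp5g2, chr15:102671048-102671167: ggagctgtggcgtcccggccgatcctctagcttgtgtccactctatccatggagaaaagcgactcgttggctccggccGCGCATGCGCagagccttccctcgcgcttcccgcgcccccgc
Atp5g3, chr2:73911327-73911446: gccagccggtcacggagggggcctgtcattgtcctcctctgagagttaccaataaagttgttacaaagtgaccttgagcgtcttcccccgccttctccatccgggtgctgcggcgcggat
Atp5j, chr16:84834977-84835096: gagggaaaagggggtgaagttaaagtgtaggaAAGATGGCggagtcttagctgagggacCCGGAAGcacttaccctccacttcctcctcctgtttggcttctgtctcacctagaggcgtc
The windows of Atp5g1 and Atp5g3 held none of these letters. Atp5j had 57.4 ± 3.71 and 56.5 ± 2.60 CPM (SD, n = 5 each) and a log2 fold change of −0.024.

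Genes that serve OXPHOS from outside the member list gave little more. Of 18 genes for mitochondrial DNA maintenance and transcription, 0 had an unadjusted p under 0.05. Tfam, which packages mitochondrial DNA, had 16.1 ± 0.70 and 15.8 ± 1.09 CPM, and Polrmt, its RNA polymerase, 14.5 ± 1.34 and 14.7 ± 0.80 CPM (SD, n = 5 each). None of 19 genes for mitochondrial RNA processing passed that threshold. Of the nuclear regulators, 9 of 10 tested lay above 0 and 0 passed, and Ppargc1a, a coactivator of mitochondrial biogenesis, had 0.24 ± 0.31. Of 43 further assembly factors 34 lay below 0 and 1 passed, Nubpl, which delivers iron-sulfur clusters to complex I (−0.35 ± 0.14, adjusted p = 0.634, edgeR).

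Of 78 mitochondrial ribosomal protein genes 56 lay below 0 and 2 passed the unadjusted threshold, both lower: Mrpl10 (−0.14, adjusted p = 0.631) and Mrpl1 (−0.19, adjusted p = 0.659). All 17 genes of the tricarboxylic acid cycle lay below 0, from −0.0044 to −0.12 with a median of −0.064, and 0 passed. Of 17 glycolysis genes 13 lay below 0 (median −0.09) and 0 passed. Of 12 hypoxia response genes 10 lay below 0 and 2 passed, both lower: Ndrg1 (−0.25, adjusted p = 0.411) and Bnip3 (−0.30, adjusted p = 0.445), a mitophagy receptor. Of the 14 genes tested for electron carriers and coenzyme Q synthesis 11 lay below 0 and 0 passed. Beside these lists and those of the preceding paragraph, 49.7% of all genes tested lay below 0 and 3.82% were lower at the unadjusted threshold. Genes of a list share libraries, so their signs are not separate observations.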

How the data were processed

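Gene-level values of 10 single-end libraries (reads of 50 bases) were used. The authors deposited estimated counts per gene, made with Partek on mm10 according to the submitters' processing notes; tool versions, the strand setting and the handling of reads with several matches were not given in the sources used here. Of the values 67.2% were whole, and the lowest sum of a gene in the table was 10. They were rounded to whole numbers, although raw counts had been assumed in the planned design. Groups came from the labels. Libraries held 20774645 to 28515403 counts, and no library pair agreed within sampling noise (chi-square per degree of freedom 8.14 or more).

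Genes passing filterByExpr (16267; 6813 left out) were scaled by TMM and tested with edgeR's quasi-likelihood test (edgeR 4.0.16, R 4.3.3), 5 against 5 libraries without covariates, with Benjamini-Hochberg adjustment over all genes tested. The script was tested on simulated data. Single values were compared by exact two-sided permutation over libraries. Log2 CPM used a prior count of 0.5. Levels per kilobase used the joined length of all annotated exons of a gene in GENCODE M21. In it, 105 of the 106 members had the position given in the table. The study's text gives littermate pairs of embryos, but not which libraries form a pair.

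Genes were named by complex and role: all mitochondrial members, those with an unadjusted p under 0.05, those most abundant per kilobase in each complex, isoform families and the extreme fold changes. Members and gene lists were chosen with earlier results of these data known. Alternatives were other scalings and filters, DESeq2 1.42.0, limma 3.58.1 with voom, the replicate number as a block, summing of copies and leaving out libraries.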

Additional observations from a re-analysis of the deposited data

Results flagged for a closer look

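In 12 of 118 groups of 5 values checked (10.2%), 1 library stood apart from the other 4 by Dixon's criterion, which chance meets in about 1 of 20 groups. Ndufs8 was 29.9 CPM in mutant-labelled library 4, with the next at 25.2 CPM. Cox6a2 was 1.72 CPM in mutant-labelled library 1, with the next at 0.358 CPM. The summed mitochondrial members were 27013 CPM in mutant-labelled library 2, with the next at 22395 CPM. The same library had the highest summed neuron markers of the 10 (472 CPM) and the lowest summed osteoblast markers (54313 CPM), and their part in the mitochondrial sum was not tested.

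The summed skeletal muscle markers stood apart at 1012 CPM in control-labelled library 2 (next 219) and at 1059 CPM in mutant-labelled library 1 (next 190.5). The summed osteoblast markers were lowest among control-labelled libraries in library 2, at 66335 CPM, with the next at 75395 CPM.

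The share of counts listed under the chromosome 1 copy stood apart for mt-Co1 in mutant-labelled library 5 (17.3%, next 16.1%) and for mt-Co2 in mutant-labelled library 4 (50.4%, next 54.8%). For mt-Co3 it did so in control-labelled library 4 (50.001%) and mutant-labelled library 2 (50.003%), where the libraries of a group differed by under 0.01 percentage points. For mt-Nd4 it was 0.548% in control-labelled library 5 (next 0.0644%) and 1.75% in mutant-labelled library 4 (next 0.104%).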

How the results depend on the processing

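No member passed an adjusted p under 0.05 under any alternative run. At an unadjusted p under 0.05, 2 members were lower with library size alone and 1 higher with DESeq2 size factors or with at least 10 counts in every library; with the pair of muscle-rich libraries left out, an alternative chosen after seeing the data, 1 was lower. Leaving out each library in turn gave 2 to 10 lower (10 without mutant-labelled library 4; 7 without control-labelled or mutant-labelled library 2; 2 without control-labelled library 4 or mutant-labelled library 1 or 3) and 0 to 2 higher. Over all genes tested, the shares lower and higher were 2.63% to 4.13% and 2.34% to 4.89% in these fits, 4.36% and 1.59% with library size alone, 3.38% and 4.03% with DESeq2 size factors, 3.48% and 4.16% with at least 10 counts and 3.62% and 4.35% without the muscle-rich libraries. Fold changes reversed for Cox6a1 (0.0020 with DESeq2 size factors, 0.0029 with at least 10 counts, 0.0023 with the DESeq2 Wald test), mt-Nd6 (−0.0053 with library size alone, −0.18 without muscle-rich libraries), Ndufa4 (−0.026 with library size alone) and Cox7a1 (0.0038 without muscle-rich libraries). Over single libraries left out they spanned 0 for Ndufa4 (−0.032 to 0.066), mt-Nd6 (−0.089 to 0.16), Atp5g3 (−0.057 to 0.0053), Cox6a1 (−0.033 to 0.033), Cox6b2 (−0.023 to 0.095), mt-Atp8 (−0.30 to 0.084), mt-Nd2 (−0.26 to 0.010), mt-Nd4 (−0.26 to 0.0032) and mt-Nd3 (−0.32 to 0.018). The causes were not tested.

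With the replicate block, 4 members were lower and 0 higher (3.14% and 3.48% of all genes tested), and the mitochondrial median was −0.15. Libraries of the same number had correlations of −0.20, 0.14, −0.21, 0.027 and −0.14. Low values like these do not show whether the numbers pair the samples. Depth limited Cox6a2 and Cox8b, at 1 to 43 and 2 to 29 counts per library.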
